A study of Mus musculus with 6 samples.

Results

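Notch and YAP pathway genes were examined in liver of ErbB4-/- and control mice, as a set of 10 of the 22180 genes measured. The set was chosen by name and holds the Notch receptors Notch1 and Notch2, the ligand Jag1, the Notch targets Hes1, Hey1 and Sox9, and the YAP targets Ccn1, Ccn2, Ankrd1 and Amotl2. All 10 were read on the arrays, Ccn2 by 2 probe sets and the others by 1 each, and for Ccn2 the probe set with the higher mean was used. Tissue came from 3 ErbB4-/- mice and 3 wild-type control mice, each on 1 single-colour whole-transcript array. The ErbB4-/- mice were full mutants for the receptor tyrosine kinase ErbB4, rescued from embryonic death by a transgene that expresses ErbB4 in the heart (ErbB4-/-HER4heart) and backcrossed to C57BL/6J. The controls were C57BL/6J mice. All 6 mice, controls included, had received a single dose of DEN (in this field the liver carcinogen diethylnitrosamine) on postnatal day 14, so no group shows untreated liver. The rescue transgene is present in the ErbB4-/- mice alone, and loss of the receptor and presence of the transgene cannot be told apart. The treatment protocol gives 32 weeks to dissection for every mouse, whereas the treatment characteristic gives 35, 36 and 37 weeks for ErbB4-/- replicates 1 to 3 and 32, 33 and 34 weeks for control replicates 1 to 3.

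Notch receptors are cut when a ligand such as Jag1 on a neighbouring cell binds them, and the freed intracellular part joins the DNA-binding protein RBPJ and switches on repressor genes of the Hes and Hey families. In liver, signalling from Jag1 to Notch2 is known for shaping the bile ducts, and Sox9 marks duct and progenitor cells. YAP is a coactivator that the Hippo kinases keep out of the nucleus. In the nucleus it binds TEAD factors and raises transcription of Ccn1, Ccn2, Ankrd1 and Amotl2. ErbB4 touches both pathways by its known biochemistry, since it is cut by the same gamma-secretase as Notch and its intracellular part can bind YAP.

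The promoter letters of the YAP targets are shown because TEAD binding near the start is the textbook route to these genes. RefSeq windows (GRCm38.p6) were at hand for 6 of the 10 genes, and the 250 bases before the start of Ccn1, Ankrd1 and Amotl2 read, 5′ to 3′ on the gene's strand, with the TEAD letters GGAATG, or CATTCC where they lie on the other strand, in capitals:
Ccn1, chr3:145649986-145650235, strand minus: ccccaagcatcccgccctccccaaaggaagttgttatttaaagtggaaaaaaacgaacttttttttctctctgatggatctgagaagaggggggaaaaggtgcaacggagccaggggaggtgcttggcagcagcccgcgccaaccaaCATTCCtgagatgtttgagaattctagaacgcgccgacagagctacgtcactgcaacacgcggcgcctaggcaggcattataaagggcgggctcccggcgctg
Ankrd1, chr19:36119845-36120094, strand minus: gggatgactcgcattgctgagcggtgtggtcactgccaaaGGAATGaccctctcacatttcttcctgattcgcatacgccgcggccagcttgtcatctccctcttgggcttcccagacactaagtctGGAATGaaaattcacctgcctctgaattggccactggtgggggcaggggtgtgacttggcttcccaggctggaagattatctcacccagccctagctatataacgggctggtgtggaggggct
Amotl2, chr9:102717554-102717803, strand plus: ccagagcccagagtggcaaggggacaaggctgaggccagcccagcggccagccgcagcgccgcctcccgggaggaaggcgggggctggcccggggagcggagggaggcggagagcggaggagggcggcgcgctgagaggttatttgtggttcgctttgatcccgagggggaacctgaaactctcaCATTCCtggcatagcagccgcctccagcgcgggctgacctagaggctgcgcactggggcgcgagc
Ccn1 held these letters 103 to 98 bases before the start and Amotl2 65 to 60 bases before it. Ankrd1 held them at 210 to 205 and at 123 to 118 bases. Among all 32851 windows of this length, 12.6% held them on either strand. Notch1 also held them, at 233 to 228 and at 216 to 211 bases, and Notch2 and Jag1 did not. The RBPJ letters TGGGAA, which the other strand shows as TTCCCA, lay in Ankrd1 alone of the 6, at 141 to 136 and at 63 to 58 bases, without overlap with the TEAD letters, against 21.6% of all windows. The AP-1 letters TGANTCA, which read the same on both strands, were in none of the 6 windows and in 6.75% of all windows. No window was at hand for Hes1, Hey1, Sox9 and Ccn2, so the Notch targets of the set and Ccn2 were not searched for any of these letters. A run of matching letters is a description of these windows and says nothing of binding in these livers.

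Before the members, the arrays themselves are described. Medians over all probe sets were 4.83 to 4.86 on the log2 scale. Erbb4, the targeted gene, had log2 values of 4.75, 5.36 and 5.61 in ErbB4-/- replicates 1 to 3, against 5.42, 5.73 and 5.42 in control replicates 1 to 3. The groups overlapped, and which part of the gene its probe set reads was not examined here, so it does not check the labels. Hepatocyte markers as a list of 8 had a mean log2 value of 12.56 to 12.64 on ErbB4-/- arrays and of 12.61 to 12.77 on control arrays. Control replicate 1 stood apart in genes that differ between male and female mouse liver. All 5 male-type genes had values there below those of the other 5 arrays. Of 4 female-type genes, 2 lay there above the other 5 arrays, 1 below them and 1 within their range. Those above were Cyp2b9, at 12.59 against 7.84 to 8.46, and Cyp2b13, at 10.91 against 5.89 to 6.46. The gene below was Sult2a1, at 2.56 against 2.61 to 2.98. Values without control replicate 1 are given for some of the results that it moves. Many genes held the same value to 4 decimals on several arrays, on at least 3 of the 6 arrays for 30.9% of all genes and for 3 of the 10 Notch and YAP genes. Such genes have a small spread or none between those arrays, and the cause of the equal values was not tested.

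None of the 10 genes passed the test (limma, Benjamini-Hochberg adjusted p between 0.760 and 0.955), where 0.00451% of all genes, 1 of 22180, passed. Ccn2 was the gene that came nearest, at a log2 value lower by 0.47 in ErbB4-/- liver, with no overlap between the groups. Amotl2, another YAP target, had higher values in ErbB4-/- liver with groups that touched, and Ccn1 varied more between mice of a group than between the groups. The Notch receptors, ligand and targets differed by about 0.10 at most between the group means. At an unadjusted p under 0.05 there was 1 of the 10 genes, Ccn2, against 5.72% of all genes in either direction and 2.94% with lower values in ErbB4-/- liver, and groups did not overlap for 1 of the 10, against 8.33% of all genes. Values were lower in ErbB4-/- liver for 8 of the 10, against 44.8% of all genes, with a median difference of -0.076 against 0.015 over all genes. The count of lower values was 7 without control replicate 1, 5 without ErbB4-/- replicate 3, 5 without both, and 2 with the labelled week added to the fit. The median difference ran from -0.17 without ErbB4-/- replicate 1 to 0.0079 without ErbB4-/- replicate 3, and it was 0.051 with the labelled week added to the fit, a term whose values do not overlap between the groups. Differences are ErbB4-/- minus control on the log2 scale throughout, means carry the SD over n = 3 arrays, and SE is the standard error from limma.

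**Figure D1:**
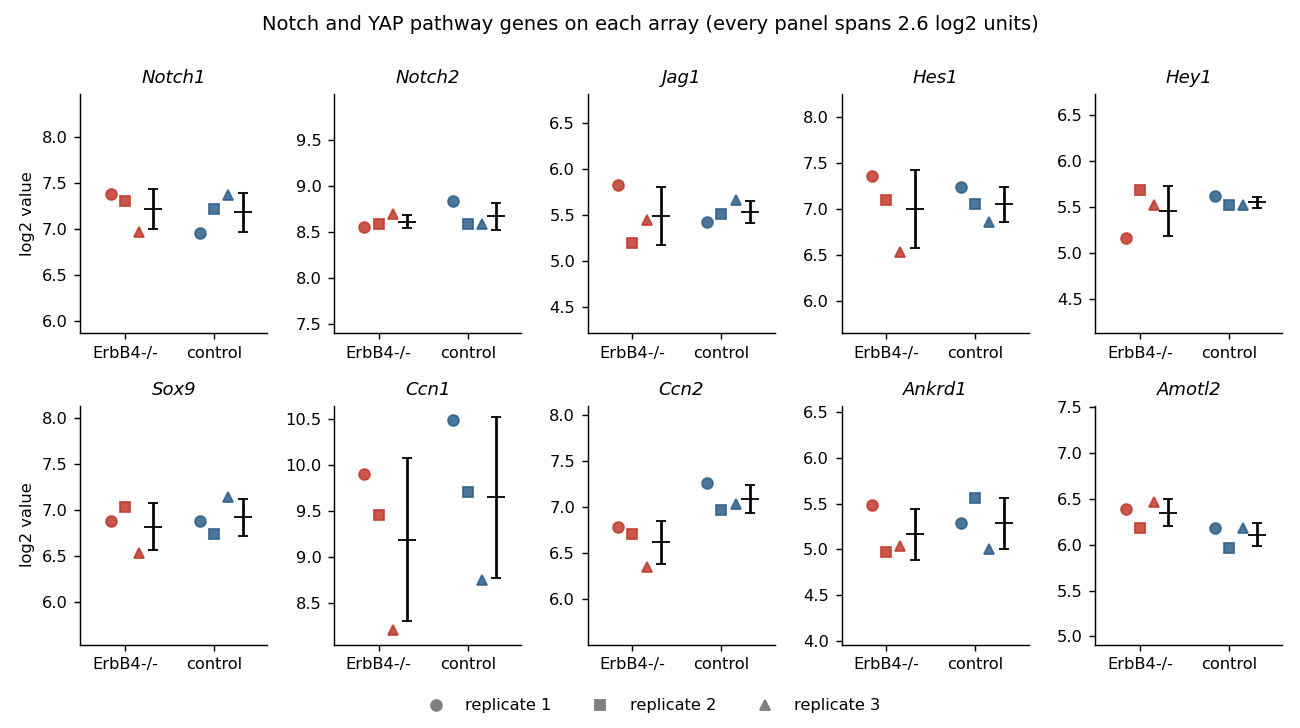
Log2 values of the 10 genes (vertical axes, all panels to the same span) on the 3 ErbB4-/- arrays (red, left) and the 3 control arrays (blue, right), with marker shape for the replicate number and the black bar for the mean ± SD. Only Ccn2 has groups that do not overlap, and Ccn1 spreads over 2.29 log2 units.

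Notch2, the receptor that receives the Jag1 signal in developing ducts, was the steadiest of the set. Its log2 values were 8.56, 8.59 and 8.69 in ErbB4-/- replicates 1 to 3, against 8.84, 8.59 and 8.59 in control replicates 1 to 3. The groups overlapped, 3 arrays shared 1 value, and control replicate 1 was the highest. The means were 8.61 ± 0.070 in ErbB4-/- liver and 8.67 ± 0.14 in control liver, a difference of -0.058 with a 95% confidence interval of -0.28 to 0.16 (limma, adjusted p = 0.853). Without control replicate 1 the difference was 0.025.

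Notch1, which in liver is known mainly from endothelial cells, had log2 values of 7.37, 7.31 and 6.96 in ErbB4-/- replicates 1 to 3, against 6.95, 7.21 and 7.37 in control replicates 1 to 3. Each group thus held 1 array near 6.96 and others above 7.2, and the groups overlapped almost wholly. The means were 7.22 ± 0.22 in ErbB4-/- liver and 7.18 ± 0.21 in control liver. The difference of 0.036 had an interval of -0.35 to 0.42 (limma, adjusted p = 0.952), and leaving out 1 array gave -0.076 to 0.16.

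Jag1, the ligand whose loss causes bile duct paucity in Alagille syndrome in humans, had log2 values of 5.83, 5.20 and 5.45 in ErbB4-/- replicates 1 to 3, against 5.42, 5.51 and 5.66 in control replicates 1 to 3. The highest and the lowest of the 6 values were both in ErbB4-/- liver. The means were 5.49 ± 0.32 in ErbB4-/- liver and 5.53 ± 0.12 in control liver, a difference of -0.038 with an interval of -0.46 to 0.39 (limma, adjusted p = 0.955). Leaving out 1 array gave -0.21 to 0.11.

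Hes1, the repressor that is the classical Notch target, varied more within ErbB4-/- liver than within control liver. Its log2 values were 7.37, 7.10 and 6.54 in ErbB4-/- replicates 1 to 3, against 7.25, 7.06 and 6.86 in control replicates 1 to 3. The ErbB4-/- arrays held both the highest and the lowest value. The means were 7.002 ± 0.42 in ErbB4-/- liver and 7.06 ± 0.19 in control liver, a difference of -0.053 with an interval of -0.63 to 0.52 (limma, adjusted p = 0.954). Without ErbB4-/- replicate 3 the difference was 0.18, and without control replicate 1 it was 0.042. With the labelled week added to the fit it was 0.86, with an interval of 0.27 to 1.44 (limma, adjusted p = 0.994). In both groups the value fell from replicate 1 to replicate 3, as the labelled week rose. The labelled weeks do not overlap between the groups, and the cause of the fall was not tested.

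Hey1, a Notch-induced repressor best known from vessels, had log2 values of 5.16, 5.69 and 5.52 in ErbB4-/- replicates 1 to 3, against 5.62, 5.52 and 5.52 in control replicates 1 to 3. The values of 3 arrays, from both groups, were equal within 0.0001, and ErbB4-/- replicate 1 stood below the rest. The means were 5.46 ± 0.27 in ErbB4-/- liver and 5.55 ± 0.059 in control liver, a difference of -0.094 with an interval of -0.44 to 0.25 (limma, adjusted p = 0.847). Without ErbB4-/- replicate 1 the difference was 0.052.

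Sox9, a transcription factor of duct and progenitor cells that Notch and YAP can both raise, had log2 values of 6.88, 7.04 and 6.54 in ErbB4-/- replicates 1 to 3, against 6.88, 6.75 and 7.14 in control replicates 1 to 3. The groups overlapped, with the lowest value in ErbB4-/- replicate 3 and the highest in control replicate 3. The means were 6.82 ± 0.26 in ErbB4-/- liver and 6.92 ± 0.20 in control liver, a difference of -0.10 with an interval of -0.51 to 0.30 (limma, adjusted p = 0.859). Without ErbB4-/- replicate 3 it was 0.038 and without control replicate 3 it was 0.0070. The other 9 cholangiocyte markers measured had a mean log2 value of 4.403 to 4.49 on ErbB4-/- arrays and of 4.34 to 4.50 on control arrays. Of these, 4 had higher and 5 lower values in ErbB4-/- liver, with differences of -0.48 for Cd24a to 0.34 for Cldn7 and a median of -0.011, and none passed. Without control replicate 1, 7 of the 9 were higher and 2 lower, with a median of 0.045. Prom1, at 0.16, had separate groups, higher in ErbB4-/- liver, as for 4.52% of all genes, and Cldn7 had an unadjusted p under 0.05. The duct keratin gene Krt19 differed by -0.029 and the surface marker gene Epcam by -0.011. On every array Prom1, Cldn7, Krt19 and Epcam lay below 5.27, the median level of all genes, where a value can be background.

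Ccn2, a secreted matricellular protein made by stellate and endothelial cells as well as by injured hepatocytes, was the only 1 of the 10 genes whose groups were separate. Its log2 values were 6.79, 6.71 and 6.35 in ErbB4-/- replicates 1 to 3, against 7.26, 6.97 and 7.03 in control replicates 1 to 3. Every ErbB4-/- value lay below every control value, as for 3.81% of all genes, and the gap between the nearest values was narrower than the range within either group. The means were 6.61 ± 0.23 in ErbB4-/- liver and 7.09 ± 0.15 in control liver. The difference of -0.47 with an SE of 0.14 is a 1.39-fold lower mean, with an interval of -0.82 to -0.12, and did not pass (limma, adjusted p = 0.760). It stayed between -0.56 and -0.34 when any 1 array was left out, with an interval of -0.79 to 0.023 without control replicate 1, was -0.25 without both control replicate 1 and ErbB4-/- replicate 3, and was 0.024 with the labelled week added to the fit. The second Ccn2 probe set, with a lower signal, had values of 4.56, 3.97 and 4.17 in ErbB4-/- replicates 1 to 3, against 4.08, 3.71 and 4.21 in control replicates 1 to 3. It differed by 0.23 with an interval of -0.28 to 0.74 (limma over all rows of the table, adjusted p = 0.820), so the probe sets of this gene disagree in sign, and their mean gave -0.12. All values of this second probe set lay below 5.27, the median level of all genes, where a value can be background.

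Markers of other liver cells had lower values beside Ccn2, and none of them passed. Stellate markers were lower for 11 of 12, 5 without overlap against 3.81% of all genes, with a mean log2 value of 7.14 to 7.64 on ErbB4-/- arrays and of 7.69 to 7.71 on control arrays. Endothelial markers were lower for 14 of 14, 3 without overlap, with a mean of 6.75 to 7.99 on ErbB4-/- arrays and of 7.93 to 8.39 on control arrays. Kupffer cell markers were lower for 9 of 9, 9 without overlap, with a mean of 7.17 to 8.06 on ErbB4-/- arrays and of 8.47 to 8.70 on control arrays. Neutrophil markers were lower for 8 of 8, 7 without overlap, with a mean of 4.52 to 4.81 on ErbB4-/- arrays and of 5.24 to 7.28 on control arrays. Control replicate 1 was the highest array for Ccn2 and ranked 2, 4 and 2 of 6 for the stellate, endothelial and Kupffer cell lists. ErbB4-/- replicate 3 was the lowest of the 6 arrays for Ccn2 and for the mean of each of those lists. Without it the median difference was -0.16 against -0.28 with all arrays for stellate markers, -0.39 against -0.79 for endothelial markers and -0.48 against -0.69 for Kupffer cell markers. Without control replicate 1, 9 of 12 stellate, 14 of 14 endothelial and 9 of 9 Kupffer cell markers were lower. The median differences were then -0.32, -0.92 and -0.73. Hepatocyte markers were lower for 7 of 8, 2 of them (Hnf4a at -0.30 and Cyp3a11 at -0.36) without overlap and at an unadjusted p under 0.05, with a median difference of -0.027, and for 4 of 8 without ErbB4-/- replicate 3. In bulk tissue, fewer cells of a type and less RNA per cell cannot be told apart, and the part of these markers in the Ccn2 values was not tested.

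Ccn1, the nearest relative of Ccn2 in this set and a gene that growth factors induce within minutes, had the widest spread. Its log2 values were 9.90, 9.45 and 8.20 in ErbB4-/- replicates 1 to 3, against 10.49, 9.70 and 8.74 in control replicates 1 to 3. The groups overlapped over most of their range, and the 6 values spanned 2.29 log2 units. The means were 9.18 ± 0.88 in ErbB4-/- liver and 9.65 ± 0.87 in control liver. The difference of -0.46 had an SE of 0.61 and an interval of -1.97 to 1.05, so that more than a doubling in either direction lies within it (limma, adjusted p = 0.826). Without control replicate 1 the difference was -0.039, without ErbB4-/- replicate 3 it was 0.033, and without both it was 0.45. With the labelled week added to the fit it was 2.13, with an interval of 1.38 to 2.87 (limma, adjusted p = 0.994). As for Hes1, the value fell from replicate 1 to replicate 3 in both groups, and the cause was not tested.

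Immediate early genes, the stimulus-induced class to which Ccn1 is also counted, gave another order of arrays. The mean log2 value of 19 such genes, Ccn1 not among them, was 8.08, 7.89 and 6.47 in ErbB4-/- replicates 1 to 3, against 9.08, 8.38 and 8.36 in control replicates 1 to 3. The lowest array for the list and for Ccn1 was ErbB4-/- replicate 3, and the highest for both was control replicate 1. Yet the list had separate groups, whereas ErbB4-/- replicate 1 ranked 2 of 6 from the top for Ccn1 and 4 of 6 for the list. For Ccn2, which also had separate groups, ErbB4-/- replicates 1 to 3 ranked 4, 5 and 6, as for the list. Control replicates 1 to 3 ranked 1, 3 and 2 for Ccn2 and 1, 2 and 3 for the list, and a link between them was not tested. All 19 genes of the list had lower values in ErbB4-/- liver, 11 without overlap against 3.81% of all genes. Their median difference was -1.27, and none passed. The size of that median rests on single arrays: it was -0.63 without ErbB4-/- replicate 3, -0.65 without control replicate 1 and -0.35 without both, with 19 of 19 still lower in each case. Examples were the orphan nuclear receptor gene Nr4a1 at 7.24 ± 0.51 in ErbB4-/- liver and 9.05 ± 0.69 in control liver, the stress gene Gadd45b at 7.07 ± 0.23 in ErbB4-/- liver and 7.87 ± 0.31 in control liver, and the AP-1 gene Fosl2 with a difference of -0.44.

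**Figure D2:**
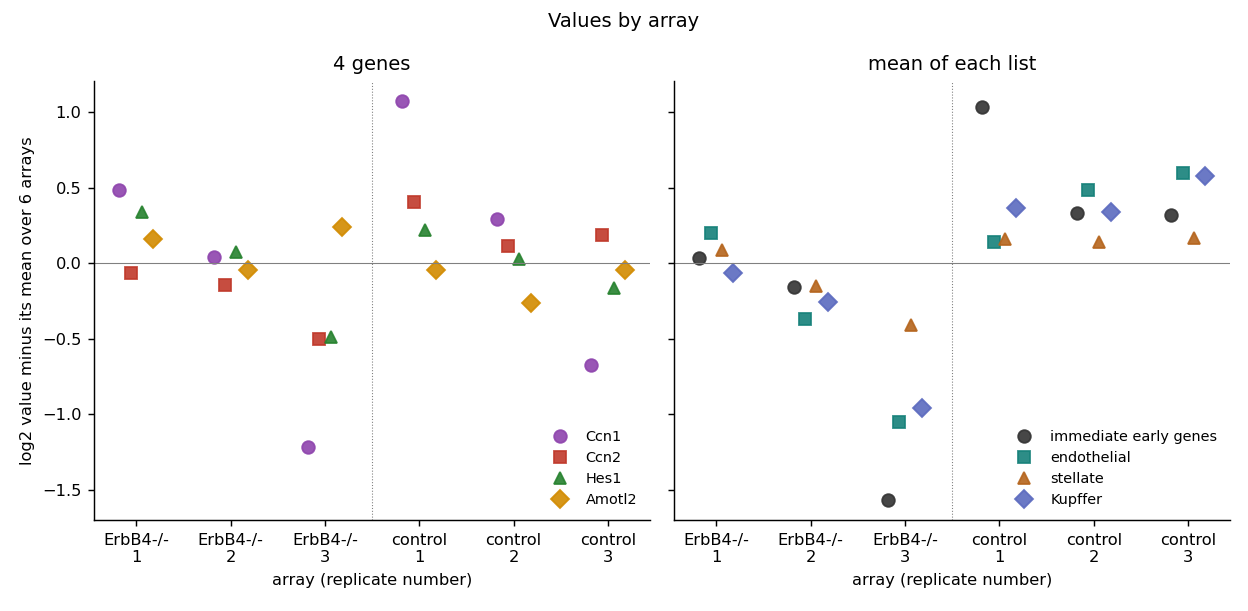
Log2 value minus its mean over the 6 arrays (vertical axis) for Ccn1, Ccn2, Hes1 and Amotl2 (left) and for the mean of the immediate early, endothelial, stellate and Kupffer cell lists (right), on ErbB4-/- arrays 1 to 3 and control arrays 1 to 3 (horizontal axis). ErbB4-/- replicate 3 is lowest for Ccn1, Ccn2, Hes1 and the 4 lists and highest for Amotl2.

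Amotl2, an angiomotin-like scaffold that YAP induces and that in turn restrains YAP, was the only YAP target of the set with higher values in ErbB4-/- liver. Its log2 values were 6.39, 6.18 and 6.47 in ErbB4-/- replicates 1 to 3, against 6.18, 5.96 and 6.18 in control replicates 1 to 3. ErbB4-/- replicate 2 and control replicates 1 and 3 shared 1 value, so the groups touched. The means were 6.35 ± 0.15 in ErbB4-/- liver and 6.11 ± 0.13 in control liver, a difference of 0.24 with an SE of 0.10 and an interval of -0.021 to 0.49 (limma, adjusted p = 0.760). It was 0.16 to 0.32 with any 1 array left out.

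Ankrd1, a nuclear ankyrin-repeat protein used as a YAP readout, had log2 values of 5.48, 4.97 and 5.04 in ErbB4-/- replicates 1 to 3, against 5.29, 5.56 and 5.004 in control replicates 1 to 3. The groups overlapped, with 1 ErbB4-/- array and 2 control arrays above 5.2. The means were 5.16 ± 0.28 in ErbB4-/- liver and 5.28 ± 0.28 in control liver, a difference of -0.12 with an interval of -0.61 to 0.37 (limma, adjusted p = 0.861). Ankrd1 was also the only member below the median level of all genes, 5.27, where a value can be background. Without control replicate 2 its difference was 0.018. The 4 YAP targets thus had differences of both signs.

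**Figure D3:**
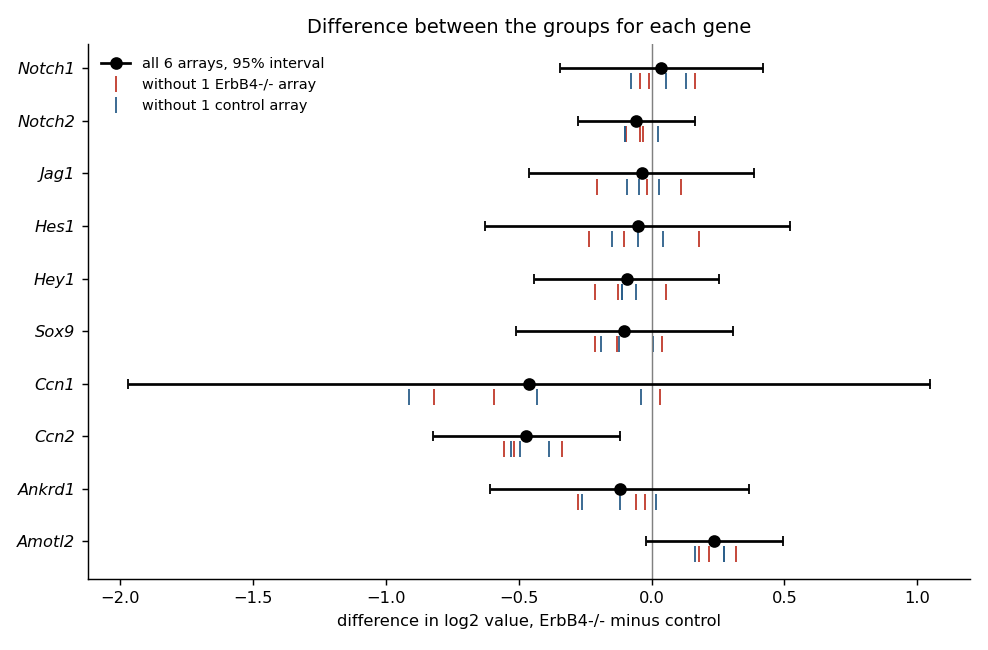
Difference in log2 value, ErbB4-/- minus control (horizontal axis), for the 10 genes, with points and bars for all 6 arrays and their 95% interval and ticks for fits without 1 ErbB4-/- array (red) or 1 control array (blue). The interval of Ccn2 lies below 0, those of the other 9 genes hold 0, and only Ccn2 and Amotl2 keep their sign in every fit without 1 array.

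The wider Notch pathway was read from lists of receptors, ligands, processing enzymes, nuclear partners and targets, and no gene of them passed. Over the 4 receptors the median difference was -0.029. Notch3, a receptor of mural and stellate cells, measured 5.08 ± 0.25 in ErbB4-/- liver and 5.20 ± 0.13 in control liver. Its difference of -0.13 was 0.011 without ErbB4-/- replicate 3. Notch4, an endothelial receptor, was at 5.48 on all 6 arrays, the same to 4 decimals. The 5 ligands had a median of -0.017, with 2 higher and 3 lower. Dll1 differed by 0.12, Dll3 by 0.11 and the endothelial ligand gene Dll4 by -0.072. Without ErbB4-/- replicate 2, Dll1 was at 0.0076 and Dll3 at 0.054, and without control replicate 3, Dll4 was at 0.0061. The mean of all its probe sets turned Dll1 to -0.055.

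Among 14 processing and modifier genes, 5 were higher and 9 lower, with a median of -0.062. Without control replicate 1, 7 were higher and 7 lower, with a median of -0.0095. Psen2, a catalytic subunit of the gamma-secretase that cuts both Notch and ErbB4, was the only gene of these 5 lists with separate groups. Its log2 values were 6.95, 7.08 and 6.98 in ErbB4-/- replicates 1 to 3, against 6.80, 6.93 and 6.86 in control replicates 1 to 3. The means were 7.01 ± 0.070 in ErbB4-/- liver and 6.86 ± 0.065 in control liver, a difference of 0.14 that did not pass (limma, adjusted p = 0.760), and groups were separate and higher for 4.52% of all genes. Ncstn, which encodes another gamma-secretase subunit, differed by -0.17, and Dlk1, a Notch ligand-like gene of fetal liver, by -0.23. Both were smaller in size without ErbB4-/- replicate 3, at -0.10 and -0.14.

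The 6 nuclear partners had a median of 0.032. The coactivator genes Maml2 and Maml1 differed by -0.19 and -0.12 and the corepressor gene Spen by 0.078. Without ErbB4-/- replicate 3, Maml2 was at -0.073 and Maml1 at 0.013, and without control replicate 2, Spen was at 0.031. Of the 9 Notch targets listed, 3 of them members, 3 were higher and 6 lower, with a median of -0.053. Without ErbB4-/- replicate 3, 6 were higher and 3 lower, with a median of 0.049. Without control replicate 1, 5 were higher and 4 lower, with a median of 0.030. With all 6 arrays, the largest difference there was that of Hes6, a Hes-family gene that counters Hes1, at 6.94 ± 0.43 in ErbB4-/- liver and 6.59 ± 0.20 in control liver (limma, adjusted p = 0.760), with overlapping groups. Its difference of 0.35 was 0.10 without ErbB4-/- replicate 3. The target gene Heyl differed by -0.12, and by -0.33 without that array, where it was larger in size than Hes6. Dtx1 differed by -0.088, and by -0.012 without ErbB4-/- replicate 2.

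On the YAP side, 12 Hippo kinases and regulators had a median of -0.018, with 5 higher, 6 lower and Lats2 at a difference of 0. Lats2 was at 6.20 on all 6 arrays, the same to 4 decimals, as were 0.55% of all genes. The atypical cadherin gene Fat4 differed by -0.29, with 4.88, 4.799 and 4.57 in ErbB4-/- replicates 1 to 3, against 4.88, 5.06 and 5.18 in control replicates 1 to 3. Its groups touched, and the mean over all its probe sets turned the difference to 0.018. The tumour suppressor gene Nf2 differed by 0.24 and the scaffold gene Wwc1, known as KIBRA, by 0.24, and by 0.14 without control replicate 2. YAP itself, Yap1, measured 8.30 ± 0.15 in ErbB4-/- liver and 8.18 ± 0.11 in control liver, a difference of 0.12 that was 0.030 without ErbB4-/- replicate 3. The 8 genes of YAP, TAZ and TEAD had a median of 0.016, with Vgll4, a TEAD-binding competitor of YAP, at 0.10 and Tead1 at -0.16. Without control replicate 1, Tead1 was at -0.044 and the median of the 8 genes was -0.012.

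Of 21 YAP targets measured, 4 of them members, 5 were higher, 15 lower and Lats2 at a difference of 0, with a median of -0.080 against 0.015 over all genes. The 17 that are not members had 4 higher and 12 lower, with a median of -0.067. Without control replicate 1 the median of the 21 was -0.027. Without both that array and ErbB4-/- replicate 3, 12 of the 21 were higher and 8 lower, with a median of 0.011. Groups were separate and lower for 3 of the 21, Ccn2, Nt5e and Ccdc80, against 3.81% of all genes. Nt5e, the surface nucleotidase CD73, had log2 values of 5.94, 6.03 and 5.67 in ErbB4-/- replicates 1 to 3, against 6.41, 6.22 and 6.29 in control replicates 1 to 3, a difference of -0.42 with an SE of 0.11 (limma, adjusted p = 0.760). Ccdc80, a matrix protein gene, differed by -0.30, and Axl, a receptor tyrosine kinase gene, by -0.23. Axl was at -0.085 without ErbB4-/- replicate 3, and Ccdc80 was at -0.20 without control replicate 1. The other CCN family genes, which encode relatives of Ccn1 and Ccn2, had differences of both signs, 0.24 for Ccn5, 0.16 for Ccn3 and -0.070 for Ccn4. These were 0.11 for Ccn5 without control replicate 3, 0.054 for Ccn3 without ErbB4-/- replicate 3 and -0.037 for Ccn4 without control replicate 3. No gene of these lists passed (limma).

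**Figure D4:**
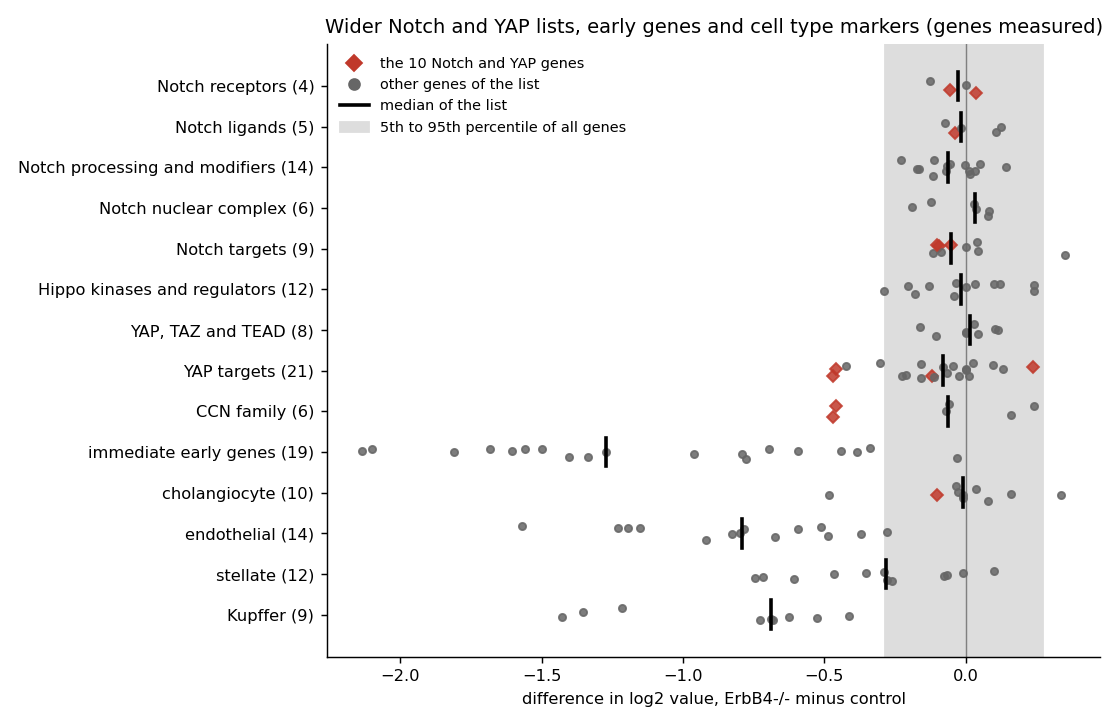
Difference in log2 value, ErbB4-/- minus control (horizontal axis), for each gene measured of the lists named on the left, with red diamonds for the 10 Notch and YAP genes, grey points for the other genes, black bars for list medians and a grey band for the 5th to 95th percentile of all genes. Medians of the Notch, Hippo and YAP lists lie between -0.080 and 0.032, and those of the immediate early, endothelial and Kupffer cell lists lie at -1.27, -0.79 and -0.69.

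The likeness of patterns over the 6 arrays was measured as the root-mean-square distance between the deviations of 2 genes from their own means. Ccn1 was the only member with a range of at least 1 log2 unit. The nearest of the 22180 genes were Gstm3, a glutathione transferase gene, at a distance of 0.29, and Inhba, the gene of the activin A subunit, at 0.30. Gstm3 had log2 values of 10.21, 9.53 and 8.63 in ErbB4-/- replicates 1 to 3, against 10.58, 10.03 and 9.70 in control replicates 1 to 3. Inhba had 7.40, 6.88 and 5.83 in ErbB4-/- replicates 1 to 3, against 7.44, 7.02 and 6.70 in control replicates 1 to 3. In both, ErbB4-/- replicate 3 was the lowest and control replicate 1 the highest, as for Ccn1, which the choice by pattern favours. For Ccn2, looked up after its values were seen, the nearest were the Rab GTPase gene Rab31, at 0.049, and the matrix protein gene Tgfbi, at 0.055. Their differences of -0.47 and -0.46 did not pass either (limma, adjusted p = 0.760 for both). Genes this near to Ccn2 in pattern have a difference near that of Ccn2 by the way they were chosen.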

How the data were processed

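Total RNA of 6 livers was amplified and labelled with biotin for Affymetrix whole-transcript arrays, per the labels' protocols. The authors deposited 1 log2 value for each probe set on each array. Background correction, normalization and summarisation are not stated in these sources, and the log base was inferred from the range of values. Of 41345 probe sets, 23521 have 1 gene symbol in the platform annotation, 1814 several and 16010 are unnamed here. Per gene, the probe set with the highest mean was kept, which gave 22180 genes. No filter on dim genes was applied.

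ErbB4-/- minus control was fitted in limma 3.58.1 (R 4.3.3; lmFit, then eBayes) with genotype as the only term, two-sided, and Benjamini-Hochberg adjustment over all 22180 genes at 0.05. Precision is limited by 3 arrays a group, with a median standard error of 0.10 over all genes. The fit was tested on simulated data. Per the series design, the 6 mice are biological replicates. Arrays with the same replicate number did not deviate together (correlations across genes of -0.10, 0.034 and -0.050), so the numbers were not taken to pair the mice.

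The members, the 18 lists (178 genes, 170 measured) and the tests were chosen with earlier results of these data known. Named are all members, Erbb4, up to 3 other genes per pathway list by smallest p, and the 2 genes nearest in pattern to a member with a range of at least 1. Krt19, Epcam, Cd24a, Cldn7, Prom1, Hnf4a, Cyp3a11, Cyp2b9, Cyp2b13, Sult2a1, Lats2, and the neighbours of Ccn2 were named after their values were seen. Promoter letters are from RefSeq (GRCm38.p6). No build is stated for the probe sets. Alternatives were another normalization, median centring, a level filter, the mean of probe sets, all rows, another prior, array weights, the replicate block, the week, left-out arrays and other thresholds. Figures were drawn with matplotlib 3.10.9.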

Additional observations from a re-analysis of the deposited data

How the results depend on the processing

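With 3 arrays a group, the median standard error of the members was 0.16 on the log2 scale, and no signal over background is given. No member tested passed under any of the 16 other fits (15 for Ankrd1, which the level filter removed) or at thresholds of 0.01 and 0.1. The count of genes that passed, 1 of 22180, was 0 with every row tested, with the replicate block, with the week as a covariate, at 0.01, with control replicate 1 and ErbB4-/- replicate 3 both left out (chosen after seeing the data), and in each fit without 1 array. With the replicate block, whose numbers were not taken to pair the mice, differences (such as the median of -0.076) are the same by construction, and only their errors can change. The interval was then -0.73 to -0.19 for Ccn1 and 0.065 to 0.41 for Amotl2, and neither passed (limma, adjusted p = 0.780 for both). The planned pseudocount was not run, because the values are already log2.

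Signs of differences that had not passed turned as follows, and the cause was not tested. With the week as a covariate they were 0.86 for Hes1, 0.030 for Notch2, 0.069 for Jag1, 2.13 for Ccn1, 0.024 for Ccn2, 0.42 for Ankrd1, 0.33 for Notch3, -0.25 for Hes6, 0.16 for Maml1, 0.18 for Maml2, 0.19 for Tead1, 0.15 for Axl, 1.20 for Gstm3, 1.38 for Inhba, 0.17 for Rab31 and 0.21 for Tgfbi. With the 2 arrays both left out they were 0.27 for Hes1, 0.017 for Sox9, 0.45 for Ccn1, 0.071 for Notch3, 0.0048 for Gstm3 and 0.28 for Inhba. With array weights Hes1 was at 0.086, and with the mean of all probe sets Dll1 was at -0.055 and Fat4 at 0.018. Over the fits without 1 array, differences ran from -0.076 to 0.16 for Notch1, -0.099 to 0.025 for Notch2, -0.21 to 0.11 for Jag1, -0.23 to 0.18 for Hes1, -0.21 to 0.052 for Hey1, -0.21 to 0.038 for Sox9, -0.91 to 0.033 for Ccn1, -0.28 to 0.018 for Ankrd1, -0.24 to 0.011 for Notch3, -0.11 to 0.0061 for Dll4, -0.33 to 0.044 for Heyl, -0.19 to 0.013 for Maml1 and -0.70 to 0.084 for Inhba.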
